A study of Homo sapiens with 17 samples.

Results

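The 10 genes described here bind, sense or carry zinc, and they were found in a count table of 60662 genes by matching gene identifiers to GENCODE symbols. They were the metallothioneins MT1E, MT1F, MT1G, MT1X and MT2A, the metal-responsive transcription factor MTF1, the zinc exporter SLC30A1 and the zinc importers SLC39A8, SLC39A10 and SLC39A14. All 10 were in the table, and 8 of them carried enough reads to be tested in the comparison of progesterone (P4) with its vehicle.

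Metallothioneins are small, cysteine-rich proteins of the cytoplasm that bind zinc and copper and release them again. When free zinc rises, it binds the zinc fingers of MTF1, which enters the nucleus and binds metal response elements before the metallothionein genes and SLC30A1. Transporters of the SLC30 family (ZnT) move zinc out of the cytoplasm, to the outside of the cell or into organelles, and those of the SLC39 family (ZIP) move it in.

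The data were total RNA-seq libraries of Ishikawa cells, an established line of human endometrial epithelial adenocarcinoma, from 17 cultures in 6 sets. Control cultures (n = 3) had medium alone, vehicle control cultures (n = 3) had the 70% ethanol vehicle and Nap, an addition that the labels do not define, P4 treated cultures (n = 3) had P4 and Nap, and Nap only cultures (n = 2) had Nap without P4. The labels name ethanol for the vehicle control alone. Treatment lasted 24 h, all cultures grew in medium with charcoal-stripped serum, and P4 was given, per the study's text, at the highest of the concentrations it used. Another 6 cultures received recombinant PSAT1, an enzyme of serine synthesis, with or without P4.

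The labels of those 6 cultures contradict each other. In 3 of them the title and treatment read PSAT1 while the name that links to the count table reads PSAT1_P4, and in the other 3 it is the reverse. They are called the titled-PSAT1 set (column PSAT1_P4) and the titled-PSAT1_P4 set (column PSAT1), and no statement is made here about which of them received P4. Separate cultures are stated as biological replicates of a single cell line, so the p-values measure the spread between cultures of that line.

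Library totals ran from 4999521 reads, in vehicle control replicate 1, to 19704493, in control replicate 2, and 3 reads, the limit that a count of 0 allows, stood for 0.156 to 0.574 CPM, the count scaled to library size. All 10 epithelial markers checked, among them EPCAM, CDH1 and KRT8, were at or above 1 CPM on average. Their summed level ran from 1676 to 1700 CPM in vehicle control and from 1295 to 1411 CPM in P4 treated libraries. EPCAM (172 to 184 against 178 to 199 CPM) and MUC1 overlapped between those groups, while the other epithelial markers did not. Of the 6 stromal markers, COL1A1, COL1A2 and COL3A1 were at or above 1 CPM on average. The summed level of the 6 ran from 343 to 358 CPM in vehicle control and from 127 to 179 CPM in P4 treated libraries. COL1A2 carried most of that difference (252 to 278 against 55.1 to 113 CPM). COL1A1, at 20.2 to 33.0 CPM over all 17 libraries, did not overlap between the groups either, while COL3A1 did (41.7 to 58.0 against 45.1 to 53.1 CPM). The defining fibroblast marker DCN was at 0 in every P4 treated library and at most 0.0804 CPM in vehicle control, and none of the 3 endothelial and none of the 4 leukocyte markers averaged 1 CPM. The part of these marker differences in the results below was not tested, and in bulk RNA fewer cells of a type and less RNA per cell cannot be told apart.

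The metallothioneins were at low levels in every set of Ishikawa cultures, while the transporters were well expressed. MT1E had no read in any of the 17 libraries, and MT1G had 1 read in all, in control replicate 3. Over all libraries MT2A had 994 reads, MT1X 695 and MT1F 356. Of the other 10 metallothionein genes and pseudogenes on the list, MT3, the form best known from brain, had 105 reads, MT1L had 41, MT1DP had 15 and MT1A had 1, and no read was counted for MT1B, MT1H, MT1HL1, MT1JP, MT1M or MT4. The MT1 genes are close copies that lie side by side on chromosome 16 (GRCh38), and only uniquely placed reads were kept by the authors, so counts of a single MT1 gene are uncertain.

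Levels were also divided by annotated exon length, and the resulting order of the genes depends on the lengths used. In the vehicle control, the level in RPKM (reads scaled to exon length and library size) was 22.1 for SLC39A10, 16.6 for SLC39A14, 11.2 for SLC30A1 and 6.04 for SLC39A8. It was 3.40 for MTF1, 3.00 for MT2A, 1.80 for MT1X and 0.872 for MT1F. In P4 treated cells SLC39A14 was first at 38.2 RPKM and SLC39A10 second at 13.4, and the other 6 kept their places, from SLC30A1 at 9.01 to MT1F at 0.859. The lengths count each exon base of all annotated transcripts, which for MT2A gives 1299 bases and for SLC39A14 gives 6942. For MT2A, and for MT1X with 1773 bases, this length equals the whole gene, introns included. A spliced transcript is shorter, so their RPKM are underestimates and their low places in the order are not settled by these values.

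The members lie on 5 chromosomes in the GENCODE 29 annotation of GRCh38, and their coordinates are those of whole genes, exons and introns included. MT2A is at 16:56608199-56609497, MT1F at 16:56657694-56660698 and MT1X at 16:56682424-56684196, all on the plus strand, and MT1E (16:56625475-56627112) and MT1G (16:56666731-56668065, minus strand) lie in the same cluster. MTF1 (1:37809567-37859620) and SLC30A1 (1:211571568-211578742) are on the minus strand of chromosome 1. SLC39A10 is at 2:195575977-195737702 on the plus strand, SLC39A8 at 4:102251041-102431258 on the minus strand and SLC39A14 at 8:22367249-22434129 on the plus strand.

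The comparison of P4 treated with vehicle control cells asks how transcripts of Ishikawa cells differed between them after 24 h. The labels name ethanol for the vehicle control alone, so by the labels P4 and ethanol cannot be told apart in it. SLC39A14 (ZIP14), a cell-surface importer of zinc, iron and manganese, rose 2.28-fold, SLC39A10 (ZIP10), another cell-surface zinc importer, fell 1.66-fold, and SLC30A1 (ZnT1), the zinc exporter of the cell surface, fell 1.25-fold. None of the 3 metallothioneins with enough reads and neither MTF1 nor SLC39A8 passed the test. Thus 3 of the 8 members tested were called, 1 higher and 2 lower. Of all 16540 genes tested, 53.0% were called, 26.6% higher and 26.5% lower. In some alternative runs 4 of the 8 members were called, and the 2 shares were not tested against each other. The median absolute log2 fold change was 0.28 over the 8 members and 0.38 over all genes.

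SLC39A14 stood at 121, 110 and 115 CPM in the 3 vehicle control libraries and at 261, 262 and 273 CPM in the 3 P4 treated libraries. The groups were far apart: the lowest P4 treated library was above all vehicle control libraries. The log2 fold change was 1.19 (SE 0.06, 95% interval 1.05 to 1.33), with an adjusted p of 3.4e-08 by edgeR's quasi-likelihood test (Benjamini-Hochberg). When each library in turn was left out, it stayed between 1.16 and 1.23.

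SLC39A10 was at 150, 153 and 155 CPM in vehicle control and at 106, 76.8 and 95.6 CPM in P4 treated libraries. All P4 treated libraries were below all vehicle control libraries, and they were spread more widely, with an SD of 14.8 against 2.84 CPM. The log2 fold change was -0.73 (SE 0.10, interval -0.95 to -0.52), adjusted p = 5.9e-05 by edgeR's quasi-likelihood test (Benjamini-Hochberg). Within each library the ratio of SLC39A14 to SLC39A10, both per length, was 0.753 ± 0.0462 (SD, n = 3) in vehicle control and 2.90 ± 0.474 (n = 3) after P4. The order of the 2 importers was thus opposite in the groups, and the lowest ratio after P4 was 2.45 against a highest of 0.806 in vehicle control.

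SLC30A1 was at 61.6, 62.9 and 58.8 CPM in vehicle control and at 54.0, 46.6 and 47.4 CPM in P4 treated libraries. The groups did not overlap, but the step was small: log2 fold change -0.32 (SE 0.08), adjusted p = 0.0054 by edgeR's quasi-likelihood test (Benjamini-Hochberg). Its range in untreated control, 41.7 to 65.9 CPM, covered both groups. SLC39A8 (ZIP8), an importer of zinc and manganese close in sequence to SLC39A14, was at 39.8, 38.2 and 39.5 CPM in vehicle control and at 52.6, 41.5 and 44.7 CPM after P4. Those groups did not overlap either, yet the difference did not pass (log2 fold change 0.23, SE 0.10, adjusted p = 0.067 by edgeR's test), although without P4 treated replicate 2 it was 0.31 and did; without P4 treated replicate 1 it was 0.13. In all, 4 of the 8 members tested had groups that did not overlap, against 60.3% of all genes tested.

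MT2A, the most abundant metallothionein here, was at 3.64, 4.12 and 3.94 CPM in vehicle control and at 4.71, 3.86 and 2.74 CPM after P4. The P4 treated libraries lay on either side of the vehicle control, and counts were as low as 19 reads. MT1X was at 2.68, 3.54 and 3.38 CPM in vehicle control and at 2.88, 1.55 and 2.21 CPM after P4, so that the groups overlapped in a single library of each. Its log2 fold change of -0.60 (SE 0.25, interval -1.15 to -0.05) had an adjusted p of 0.065 by edgeR's quasi-likelihood test, with -0.81 and a pass without P4 treated replicate 1 and -0.39 without P4 treated replicate 2. For MT2A the interval was -0.58 to 0.39 and for MT1F -0.58 to 0.53, bounds that include the spread between cultures. MTF1 was at 25.6, 28.7 and 27.7 CPM in vehicle control and at 27.9, 30.5 and 27.1 CPM after P4, overlapping groups with a log2 fold change of 0.04 (interval -0.17 to 0.24).

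**Figure D1:**
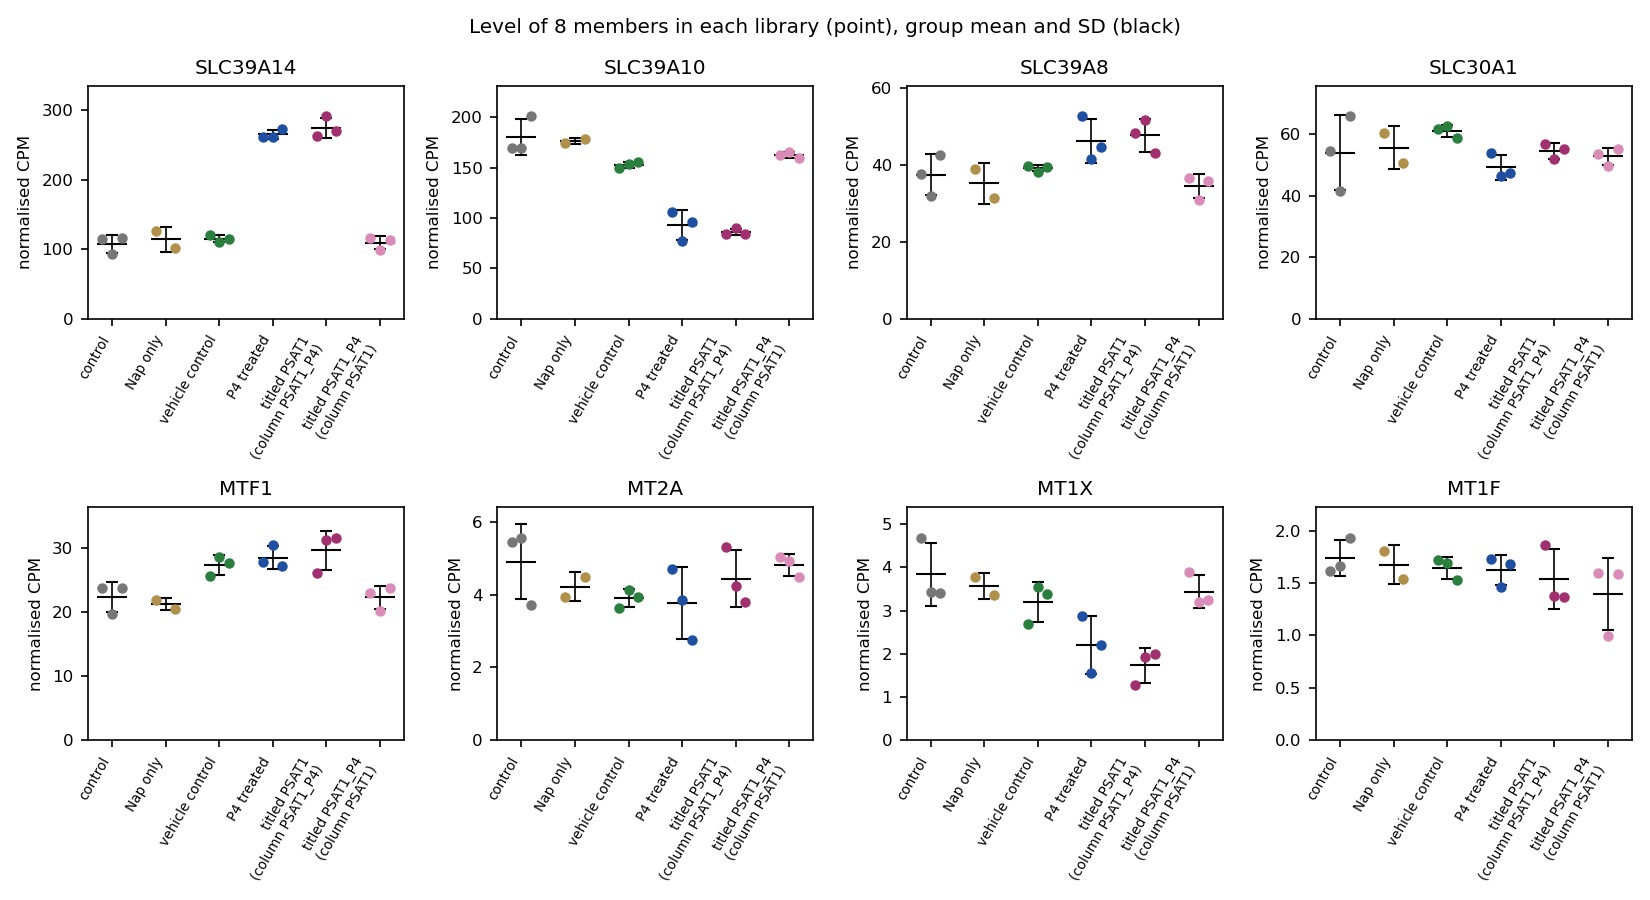
Level of the 8 members with enough reads, in TMM-normalised CPM on axes that start at 0, for each of the 17 libraries (points) in 6 sets, with the set's mean and SD in black. SLC39A14 sits between 261 and 291 CPM in the P4 treated and titled-PSAT1 (column PSAT1_P4) sets and at or below 127 CPM in the other 11 libraries. SLC39A10 is lower in the same 6 libraries, and the metallothioneins stay under 6 CPM.

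The promoters of the metal-responsive members hold short sequences that MTF1 is known to bind. The core of the metal response element was searched as TGCACNC and TGCGCNC on both strands, which cannot match at the same position, in RefSeq promoter windows (GRCh38.p14) from 250 bases before the start to 50 after it. Windows were at hand for 6 of the 10 members, and not for SLC39A14, MT1E, MT1F or MT1G. Those of MT2A, MT1X, SLC30A1 and the SLC39A10 start with a core are printed 5′ to 3′ on the strand of the gene, because the first 3 are textbook MTF1 targets and SLC39A10 was the member that fell most. Capitals mark each core, and a core on the other strand reads as its reverse complement.
MT2A, 16:56608334-56608633, plus strand: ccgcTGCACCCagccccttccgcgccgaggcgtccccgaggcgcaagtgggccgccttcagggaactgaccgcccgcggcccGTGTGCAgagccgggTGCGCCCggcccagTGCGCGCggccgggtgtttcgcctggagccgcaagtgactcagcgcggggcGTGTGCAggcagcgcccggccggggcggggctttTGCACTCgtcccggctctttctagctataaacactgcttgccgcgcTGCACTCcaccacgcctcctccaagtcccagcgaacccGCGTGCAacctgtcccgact
MT1X, 16:56682220-56682519, plus strand: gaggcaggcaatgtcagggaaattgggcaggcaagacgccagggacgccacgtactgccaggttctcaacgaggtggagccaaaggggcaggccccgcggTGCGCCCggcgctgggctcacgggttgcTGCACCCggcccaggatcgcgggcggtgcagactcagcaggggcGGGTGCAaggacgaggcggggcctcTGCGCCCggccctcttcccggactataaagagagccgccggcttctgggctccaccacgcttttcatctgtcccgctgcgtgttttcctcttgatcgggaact
SLC30A1, 1:211579112-211579411, minus strand: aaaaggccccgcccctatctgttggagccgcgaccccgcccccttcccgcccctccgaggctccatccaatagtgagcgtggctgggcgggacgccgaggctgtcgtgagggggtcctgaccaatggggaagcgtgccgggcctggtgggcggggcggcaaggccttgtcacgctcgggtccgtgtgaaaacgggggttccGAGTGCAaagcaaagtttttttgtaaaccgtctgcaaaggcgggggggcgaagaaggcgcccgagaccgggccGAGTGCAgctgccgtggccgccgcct
SLC39A10, 2:195656976-195657275, plus strand: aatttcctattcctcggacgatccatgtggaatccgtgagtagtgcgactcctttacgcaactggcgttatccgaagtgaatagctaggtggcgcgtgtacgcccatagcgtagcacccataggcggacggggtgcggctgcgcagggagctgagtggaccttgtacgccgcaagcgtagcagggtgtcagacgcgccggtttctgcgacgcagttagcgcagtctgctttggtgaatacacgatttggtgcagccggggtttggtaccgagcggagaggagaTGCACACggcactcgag

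MT2A held 8 cores, 5 of them on the strand of the gene, and MT1X held 4. SLC30A1 held 2, at 49 bases before and 25 bases after its start on the other strand, and of the SLC39A10 windows the printed start held 1, past the start, and the other start held 0. MTF1 held none, and of the 3 windows of SLC39A8 a single window held 1. Of all 35116 promoter windows in the table, 29.6% held at least 1 core, 8.60% at least 2 and 0.601% at least 4. Among the members with a window, which leaves out SLC39A14, MT2A and MT1X held the most cores. Both had no call between P4 treated and vehicle control cells, and SLC30A1, with 2, was lower there. Among the wider zinc genes, SLC30A2, with 3 cores, was called higher there, and MT1H, with 8, had no read. Of the 36 windows of all zinc genes, 18 held no core. The part of these cores in the levels was not tested. A match of these letters is a description of the sequence and not a bound site.

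**Figure D2:**
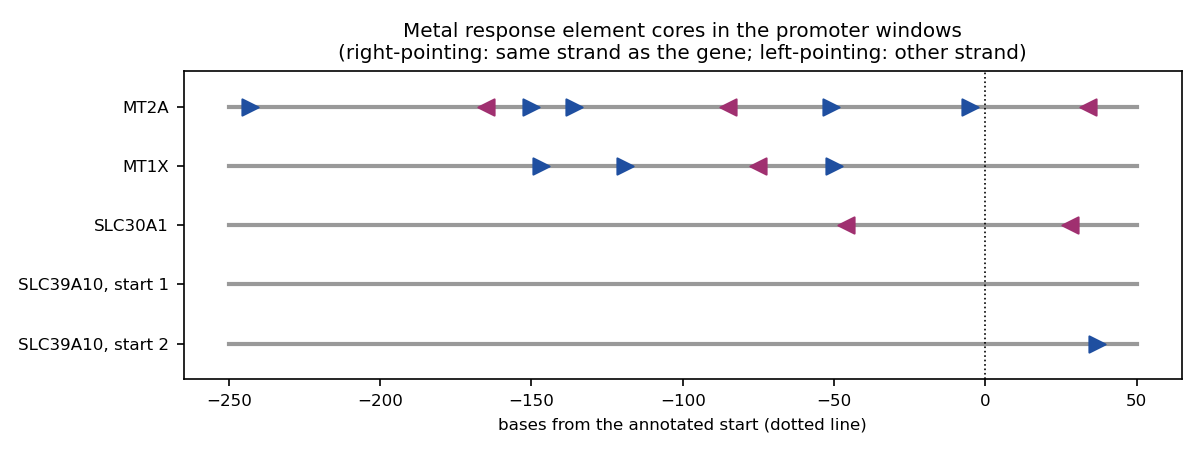
Positions of metal response element cores in promoter windows of 4 members (5 RefSeq starts), in bases from the start, with arrows for the strand relative to the gene. MT2A shows 8 arrows spread over the window and MT1X 4, all before its start, while SLC30A1 shows 2 and the SLC39A10 starts show 0 and 1.

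Among the wider zinc genes, 8 of the 22 tested on a list of 40 were called after P4, 4 higher and 4 lower, beside 53.0% of all genes tested. The list's median log2 fold change was 0.04 against -0.01 over all genes. Of the 10 ZnT exporters, 7 were tested, with 3 higher and 1 lower. SLC30A5 (ZnT5), which loads zinc into the early secretory pathway, went from 96.8 ± 0.584 to 118 ± 5.67 CPM (SD, n = 3), log2 fold change 0.27. SLC30A9, a mitochondrial zinc exporter, went from 135 ± 5.61 to 154 ± 8.60 CPM, log2 fold change 0.17. Both passed, with adjusted p-values of 0.0035 and 0.048 by edgeR's quasi-likelihood test (Benjamini-Hochberg).

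SLC30A2 (ZnT2), which moves zinc into secretory vesicles and is best known from the mammary gland, was called higher at very low counts. It had 1, 1 and 5 reads in the vehicle control libraries and 12, 30 and 24 in the P4 treated libraries, that is 0.222 ± 0.166 against 1.85 ± 0.712 CPM. The groups did not overlap, and the adjusted p was 4.5e-04 by edgeR's quasi-likelihood test (Benjamini-Hochberg). The titled-PSAT1 set (column PSAT1_P4) had 18, 14 and 21 reads and the titled-PSAT1_P4 set (column PSAT1) 2, 1 and 0. The other ZnT genes tested, SLC30A4 (20.7 ± 1.89 against 20.7 ± 2.80 CPM), SLC30A6 (52.5 ± 1.42 against 54.8 ± 6.93) and SLC30A7 (90.7 ± 1.08 against 94.3 ± 3.25), overlapped between vehicle control and P4.

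Of the 14 ZIP importers, 11 were tested, with SLC39A14 higher and 3 lower, beside 26.6% higher and 26.5% lower of all genes tested. Beside SLC39A10, SLC39A7 (ZIP7), which releases zinc from the endoplasmic reticulum, went from 126 ± 1.39 to 101 ± 4.83 CPM (SD, n = 3), log2 fold change -0.34 with adjusted p = 7.3e-04 by edgeR's quasi-likelihood test (Benjamini-Hochberg). SLC39A1 (ZIP1), an importer of the cell surface, was called lower (adjusted p = 0.048 by the same edgeR test) on 7, 16 and 11 reads in vehicle control against 7, 8 and 4 after P4. Scaled to library size these were 1.34, 1.18 and 0.884 against 0.672, 0.687 and 0.305 CPM, groups that did not overlap. The well expressed importers SLC39A9 (220 ± 10.4 against 247 ± 11.4 CPM), SLC39A6 (143 ± 3.29 against 153 ± 10.3), SLC39A11 (38.7 ± 2.19 against 38.5 ± 1.77) and SLC39A13 (12.6 ± 2.72 against 12.8 ± 0.925) did not pass. Within the ZIP family the calls thus went in both directions, with SLC39A14 the single call upwards.

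Genes of copper and iron, metals that also meet metallothioneins or SLC39A14, were counted from lists of the same kind. Of 8 copper genes, 5 were called, and of 10 iron genes 7, beside the 53.0% of all genes tested. ATP7B, a copper-exporting ATPase, rose (log2 fold change 0.46), and its relative ATP7A (-0.40), the copper chaperone ATOX1 (-0.68) and the cytochrome oxidase assembly factor SCO1 (-0.51) fell. The iron calls were 5 higher and 2 lower. The iron store ferritin rose in both chains, FTH1 from 207 ± 15.6 to 739 ± 219 CPM (SD, n = 3) and FTL with a log2 fold change of 1.24, and FTH1 has many pseudogene copies that share its sequence. HMOX1, which frees iron from heme, went from 3.31 ± 0.297 to 12.0 ± 1.28 CPM. STEAP3, an endosomal iron reductase, fell with a log2 fold change of -0.90, and SLC40A1 (ferroportin), the iron exporter, fell with a log2 fold change of -0.47. Adjusted p-values of these 9 named genes ran from 1.8e-06 for HMOX1 to 0.012 for SLC40A1 by edgeR's quasi-likelihood test (Benjamini-Hochberg).

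**Figure D3:**
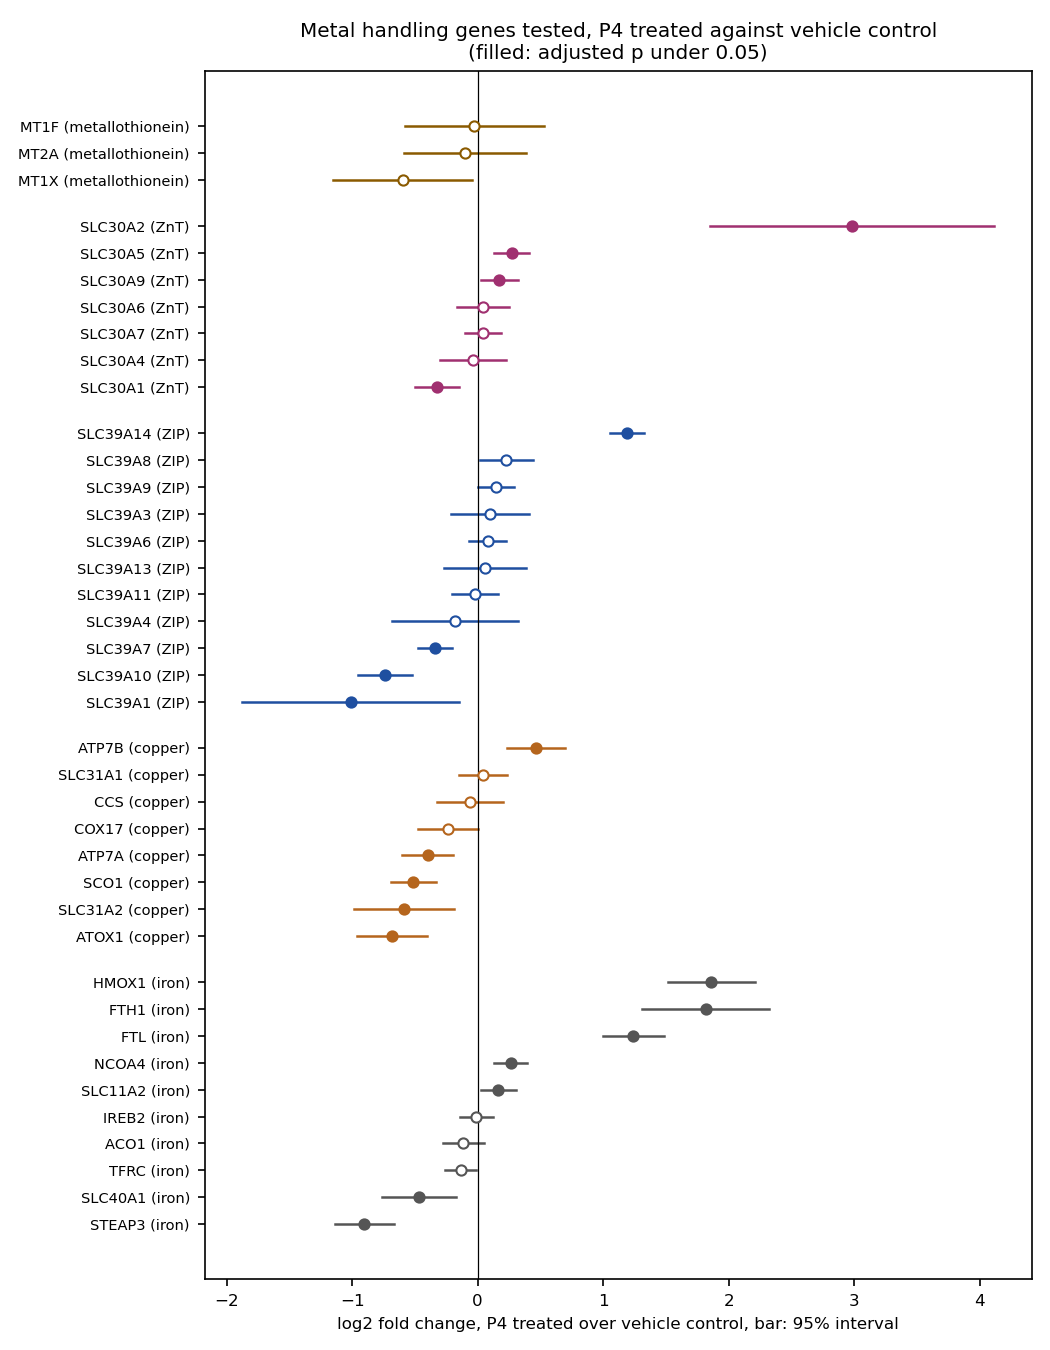
Log2 fold change of P4 treated over vehicle control for each tested gene of the metallothionein, ZnT, ZIP, copper and iron lists, with 95% intervals; filled points have an adjusted p under 0.05. SLC39A14 at 1.19 is the furthest right of the ZIP genes and SLC39A1 and SLC39A10 the furthest left, and the wide interval of SLC30A2 goes with its low counts.

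The comparison of vehicle control with untreated control asks what the vehicle alone did. MTF1 was higher and SLC39A10 lower in the vehicle control, 2 of the 8 members, where 22.6% of 16673 genes tested were called. MTF1 went from 23.7, 19.6 and 23.7 CPM in control to 25.6, 28.7 and 27.7 CPM in vehicle control, groups that did not overlap (log2 fold change 0.31, adjusted p = 0.034 by edgeR's quasi-likelihood test (Benjamini-Hochberg)). SLC39A10 went from 170, 170 and 201 CPM to 150, 153 and 155 CPM, again without overlap, with a log2 fold change of -0.23 and adjusted p = 0.029 by the same edgeR test. Both calls were fragile: leaving out 1 library ended that of MTF1 in 3 of 6 cases (control replicate 2, log2 fold change 0.22, and vehicle control replicates 2, 0.27, and 3, 0.30) and that of SLC39A10 in 4 of 6 (control replicate 3, -0.15, and vehicle control replicates 1, 2 and 3, -0.22, -0.24 and -0.25). SLC39A14 differed by 0.09 (interval -0.08 to 0.26) and SLC30A1 by 0.18 (interval -0.11 to 0.48).

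Set against untreated control, P4 treated cells gave calls for 4 of the 8 members, where 54.8% of 16620 genes were called. This comparison has the P4 treated libraries in common with the first and the control libraries in common with the others below. SLC39A14 was higher by 1.27 and SLC39A10 lower, at -0.98, on the log2 scale. MTF1 was higher by 0.33, beside 0.31 in the vehicle control, and did not pass without control replicate 2 (0.24) or P4 treated replicate 2 (0.28). MT1X, at 4.68, 3.43 and 3.42 CPM in control, was lower at -0.83 (adjusted p = 0.0098 by edgeR's quasi-likelihood test (Benjamini-Hochberg)), and without control replicate 1 the value was -0.66 and did not pass. SLC30A1, which fell against the vehicle control, differed from control by -0.15 (interval -0.44 to 0.14). It had no call against control in P4 treated or in vehicle control cells, and which of the groups moved was not tested.

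The Nap only cultures and the titled-PSAT1_P4 set (column PSAT1) gave no member call against control. In the Nap only comparison edgeR called 0% of 17166 genes, with 217 genes at an unadjusted p under 0.05, and DESeq2 called 1. The members' log2 fold changes lay between -0.22 for MT2A and 0.09 for SLC39A14, and none of the 8 tested had an unadjusted p under 0.05. For the titled-PSAT1_P4 set edgeR called 0% of 17214 genes, with 1004 at an unadjusted p under 0.05, and DESeq2 called 0. SLC39A14 stood there at 117, 98.5 and 114 CPM and SLC39A10 at 162, 165 and 160 CPM, and again no member had an unadjusted p under 0.05. The intervals against control were -0.15 to 0.22 for SLC39A14 and -0.30 to 0.03 for SLC39A10. With a term for replicate number in the fit, edgeR called 42 genes in Nap only and 29 in the titled-PSAT1_P4 set against control, and no member.

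The titled-PSAT1 set (column PSAT1_P4) differed from control in 5 of the 8 members, where 60.2% of 16209 genes were called. SLC39A14 was at 263, 291 and 270 CPM and SLC39A10 at 84.1, 90.1 and 84.2 CPM, above and below all 3 control libraries (log2 fold changes 1.33 and -1.08). MT1X was at 1.28, 1.93 and 2.00 CPM, under all control libraries, with a log2 fold change of -1.16 (SE 0.26) and adjusted p = 2.4e-04 by edgeR's quasi-likelihood test (Benjamini-Hochberg). SLC39A8 was higher by 0.34 and MTF1 by 0.39, while SLC30A1 differed by 0.01 (interval -0.28 to 0.29) and MT2A by -0.17 (interval -0.59 to 0.25). All 5 calls remained when any 1 library was left out.

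Set against each other, the 2 sets that received PSAT1 differed in 5 of the 8 members, where 62.3% of 16586 genes were called. SLC39A14 was higher in the titled-PSAT1 set by 1.30 (SE 0.07), SLC39A8 by 0.44 (SE 0.09) and MTF1 by 0.38 (SE 0.10), and SLC39A10 (-0.94, SE 0.06) and MT1X (-1.01, SE 0.24) were lower. Adjusted p-values ran from 5.4e-12 for SLC39A14 to 0.0026 for MTF1 by edgeR's quasi-likelihood test (Benjamini-Hochberg). MT1X was thus the metallothionein that separated these sets, with 13, 21 and 19 reads against 61, 48 and 55. Scaled to library size these were 1.28, 1.93 and 2.00 against 3.89, 3.20 and 3.24 CPM. SLC30A1 had a log2 fold change of 0.02 (interval -0.14 to 0.17), beside -0.32 between P4 treated and vehicle control, and the difference between those 2 values was not tested.

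**Figure D4:**
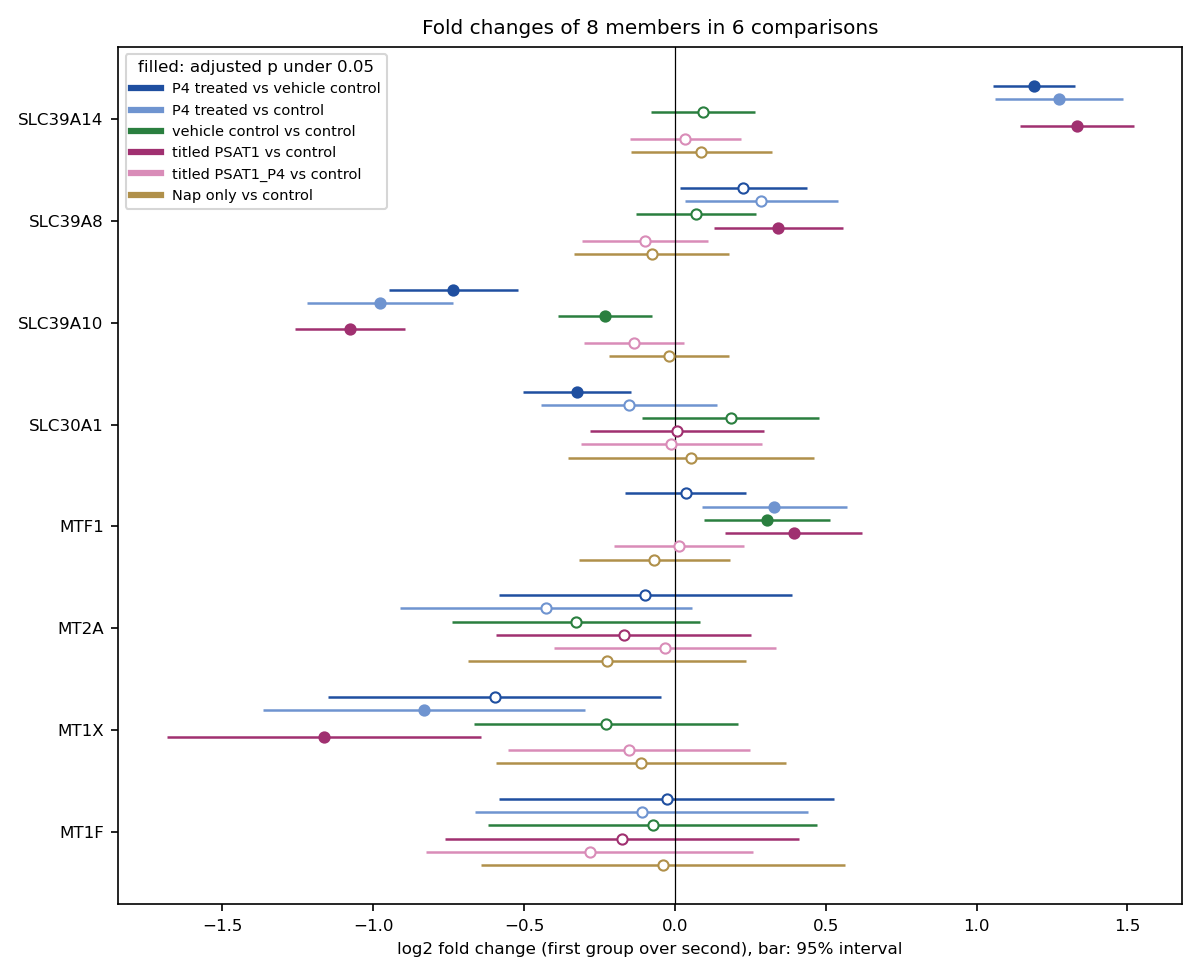
Log2 fold change of the 8 members in 6 comparisons, with 95% intervals; filled points have an adjusted p under 0.05. SLC39A14 lies at 1.19, 1.27 and 1.33 and SLC39A10 at -0.73, -0.98 and -1.08 in the comparisons of P4 treated or titled-PSAT1 (column PSAT1_P4) cultures. The titled-PSAT1_P4 (column PSAT1) and Nap only points are all open. Title and column names contradict each other on P4.

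Across the 6 sets, the order of SLC39A14 was titled-PSAT1 (275 CPM) and P4 treated (265), which overlapped, then a gap, then vehicle control (115), Nap only (114), titled-PSAT1_P4 (110) and control (108), each overlapping its neighbour. For SLC39A10 the order was control (180), Nap only (177), titled-PSAT1_P4 (162), vehicle control (153), P4 treated (92.8) and titled-PSAT1 (86.1). Its neighbours overlapped at the top and at the bottom of that order and not in between. MT1X ran from 3.84 CPM in control to 1.74 in the titled-PSAT1 set with every neighbour overlapping, and MT2A and MT1F likewise overlapped at each step. SLC30A1 ran from 61.1 CPM in vehicle control to 49.3 in P4 treated cells in the same way. SLC39A8 split into titled-PSAT1 (47.7) and P4 treated (46.3) which did not overlap vehicle control (39.2), although the highest control library, at 42.6 CPM, was above the lowest P4 treated library. MTF1 split into titled-PSAT1 (29.6), P4 treated (28.5) and vehicle control (27.3) above control (22.3), titled-PSAT1_P4 (22.3) and Nap only (21.2).

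The per-length ratio of SLC39A14 to SLC39A10 followed the same split. It was 0.599 ± 0.0687 (SD, n = 3) in control, 0.674 ± 0.0692 (n = 3) in the titled-PSAT1_P4 set and 3.18 ± 0.0529 (n = 3) in the titled-PSAT1 set. The Nap only pair gave 0.566 and 0.724. No library lay between 0.806 and 2.45.

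Among 12546 genes with a mean of at least 1 CPM, the protein-coding genes whose log2 CPM followed SLC39A14 most closely over the 17 libraries were IFRD1, MKX and PRTG (Pearson r 0.996, 0.995 and 0.994). These r rest largely on the gap between 6 high and 11 low libraries, and with each set's mean removed they were 0.912, 0.855 and 0.865. For SLC30A1 the closest were PURB (0.913), LARP4 (0.897) and SELENOI (0.896), with 0.930, 0.911 and 0.891 once set means were removed. For MT2A they were SWSAP1 (0.813), ANAPC11 (0.782) and ZNF547 (0.759). The libraries differ in depth, and these values describe likeness over the same 17 libraries only.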

How the data were processed

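RNA was sequenced from 17 Ishikawa cultures (TruSeq Stranded Total RNA, single-end 75-base reads). The authors trimmed with Cutadapt, filtered by quality, aligned with Subread keeping uniquely placed reads, and deposited raw counts per gene made with featureCounts against GENCODE release 31. Tool versions and the strand setting are not given in the sources used here. Symbols came from GENCODE 29, which held 58587 of the 60662 identifiers, and 2054 more from a table of names. Groups came from the labels. Counts were tested pairwise with edgeR 4.0.16 (TMM, filterByExpr with a minimum count of 10, robust quasi-likelihood fit, Benjamini-Hochberg adjusted p under 0.05), after a check on simulated counts. CPM use TMM factors over all 17 libraries. Library totals were 4999521 to 19704493 reads, and the floors of 3 reads cover counting error only, while fold change intervals include the spread between cultures. Alternatives were DESeq2, RLE and upper-quartile scaling, other filters, a fit of all 17 libraries, a replicate block and leaving out each library. Named genes were the 10 members, per list up to 3 called genes a direction by smallest adjusted p, ZnT and ZIP genes above 10 CPM, and the 3 genes most like MT2A, SLC30A1 and SLC39A14. The members and lists were chosen with earlier results of these data known.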

Additional observations from a re-analysis of the deposited data

How the results depend on the processing

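Values were recomputed for all 8 tested members in P4 treated against vehicle control and for called members elsewhere; 288 of 311 kept their direction and their side of the threshold, 13 fell short of it, 5 passed it and 5 turned their sign. In P4 treated against vehicle control, SLC39A14, SLC39A10 and SLC30A1 kept theirs in every alternative run. The signs that turned were of uncalled members: MT1F (leaving out a library gave -0.0861 to 0.0536), MT2A (-0.28 to 0.11) and MTF1 (-0.00767 to 0.0815, and -0.0522 with upper-quartile scaling, which moved the median of all genes to -0.10). MT1X passed with upper-quartile scaling (-0.68), with all 17 libraries in the fit (-0.58) and without P4 treated replicate 1 (-0.81), and SLC39A8 with no filter (0.25) and without P4 treated replicate 2 (0.31). The zinc list had 5 calls in place of 8 where at least 10 reads in every library were required, and 6 to 9 with a library left out. In vehicle control against control, members called numbered 1 with DESeq2, 1 with no filter and 0 to 2 with a library left out. In P4 treated against control, 4 members were called, 5 with RLE scaling, with all 17 libraries and with the block below, 3 with upper-quartile scaling and 3 to 5 with a library left out. In no comparison with 3 shared numbers did every same-numbered pair correlate above 0.1 (-0.0435 to 0.0469 for P4 treated and vehicle control), so the numbers were not taken to pair the cultures, although both Nap only and control pairs did (0.256 and 0.320). With a replicate block SLC39A14 had a log2 fold change of 1.19 in P4 treated against vehicle control and 3 members were called, and over all genes 42 were called in Nap only and 29 in the titled-PSAT1_P4 set against control, where the fit without it called 0 and no member was called in either fit. Low counts limit the metallothioneins, at 9 to 107 reads a library. The cause of the changed calls was not tested.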
